A study of Mus musculus with 6 samples.

Results

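DNA replication and G1/S genes were examined as a fixed list of 43 genes, chosen by name for origin licensing, the replisome, nucleotide synthesis and passage from G1 into S phase. The list was drawn up with earlier results of these data known. All 43 genes were measured, out of 19937 genes in all. Mouse CD4+ T cells, purified as naive cells from the spleen of B6 mice, were stimulated with anti-CD3 and anti-CD28 over 2 days and left to rest overnight, in every culture alike. Each culture next received a 20 min coat of antibody, either to CD3 alone (4 cultures, the anti-CD3 group) or to CD3 and the costimulatory receptor ICOS (2 cultures, the anti-CD3 plus anti-ICOS group), and the bound antibodies were cross-linked with goat anti-hamster antibody for 8 h. Each culture gave 1 Affymetrix Mouse Gene ST array, described in the labels as biological replicates. No p-value here measures more than the spread among these 6 arrays. The comparison concerns the effect of adding an ICOS signal to a CD3 signal.

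Before a cell copies its DNA, the origin recognition complex and the loaders Cdc6 and Cdt1 place the ring-shaped MCM helicase on origins in G1. In S phase the helicase is activated and polymerases, clamp, clamp loader and ligase copy the strands, fed by enzymes that make deoxynucleotides. D-type cyclins with Cdk4 or Cdk6, and cyclin E with Cdk2, inactivate the retinoblastoma family and release E2F factors, which drive many replication genes. In T cells this programme is switched on by antigen receptor and CD28 signals, before rapid clonal division.

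Values are given as log2(intensity + 16), where the offset shrinks the changes of dim genes, and each difference subtracts the mean of the anti-CD3 group from that of the anti-ICOS group. The levels of different genes cannot be ranked, because each probe set has its own brightness. The threshold is a limma p-value of 0.05 after Benjamini-Hochberg adjustment over all 19937 genes. Median intensities of the 6 arrays lay between 109 and 114, and the small number of arrays limits the precision. Anti-CD3 replicate 4 stood apart from replicates 1 to 3 in many genes, so it is shown on its own throughout, and results are given with and without it. Over all genes it lay nearer to the anti-ICOS mean than to that of replicates 1 to 3 in 78.1%, and the labels hold nothing else to check its group by. Every difference that uses all 4 anti-CD3 arrays therefore rests on that label. Replicate 4 was set apart with earlier results of these data known. Over all genes, leaving it out lowered the median SD of the anti-CD3 group from 0.128 to 0.085. Of all genes, 29.7% then passed the threshold. Each p-value or count of passing genes without replicate 4, or with little weight on it, is therefore descriptive and no test of ICOS. The 6 measured T cell markers read between 11.07 and 12.81 on all arrays. Of markers that CD4+ T cells lack, 5 B cell genes read between 9.73 and 12.70 and 2 CD8 genes between 9.98 and 11.76, and these levels cannot be set against those of the T cell markers. In these bulk samples, fewer cycling cells and less replication RNA per cell cannot be told apart.

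Most replication genes lay lower with anti-ICOS, down to -1.04 for the polymerase gene Pole, yet 0 of 43 passed the test with all 6 arrays. Of the 43 genes 41 had a negative difference, with a median of -0.53 against -0.031 over all genes. Cdk6 and Ccnd2 were the 2 exceptions. By limma with Benjamini-Hochberg adjustment 0% of all genes passed as lower and 0.271% as higher, and adjusted p of the 43 lay between 0.333 for Mcm4 and 0.868 for Cdc25a. At an unadjusted p under 0.05, 24 were lower and 1 was higher, where 5.56% of all genes were lower and 6.24% higher. Without anti-CD3 replicate 4, 36 fell and 2 rose, where 12.7% of all genes fell and 17.1% rose, and the median was -0.66. With array quality weights, which gave replicate 4 a weight of 0.15 against 4.53 for replicate 1, 41 of 43 passed, where 47.2% of all genes did. With replicate 4 as the only reference, 0 of 43 passed, where 0.176% of all genes did, and the median was -0.049.

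Replicate 4 and both anti-ICOS arrays were the low arrays in most of the 43 genes. In 39 of 43 genes both anti-ICOS arrays lay below all of anti-CD3 replicates 1 to 3, a pattern held by 35.1% of all genes. In 39 of 43, replicate 4 also lay below replicates 1 to 3, against 42.5% of all genes. Both anti-ICOS arrays lay below all 4 anti-CD3 arrays in 20 genes, against 14.7% of all genes, and above all 4 in 1, Cdk6, against 8.51%. The count of 20 became 31 without anti-ICOS replicate 2. The pattern then asks for only 1 anti-ICOS array, and the share of all genes was not counted, so 31 cannot be set against 14.7%. Replicate 4 lay between the 2 anti-ICOS values in 13 genes, against 27.7% of all genes, and nearer to their mean than to that of replicates 1 to 3 in 41, against 78.1% of all genes. Smaller shifts ran through the list on other arrays as well. Anti-ICOS replicate 1 read lower than replicate 2 in 37 of 43 genes, against 55.5% of all genes, and anti-CD3 replicate 3 was the lowest of replicates 1 to 3 in 35 of 43, against 46.1% of all genes.

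**Figure D1:**
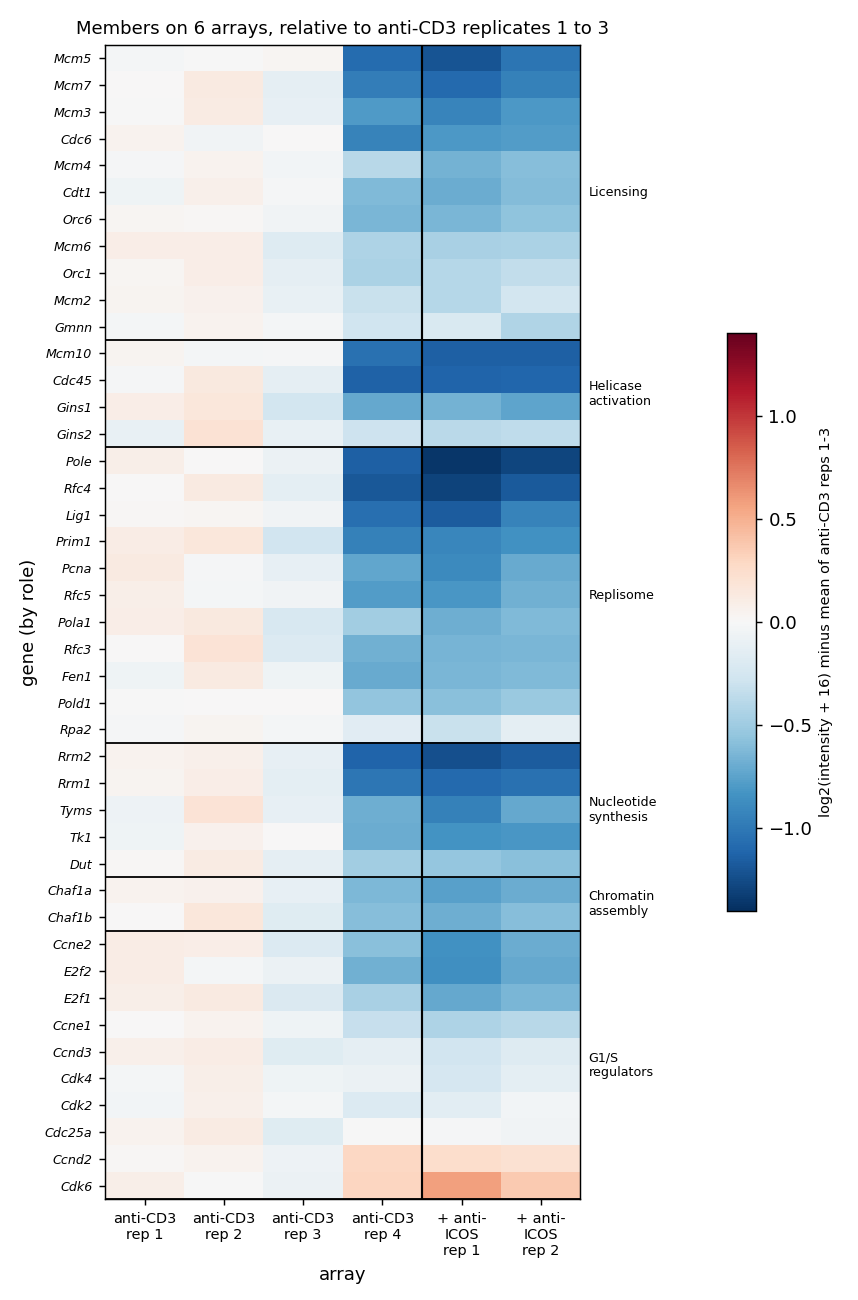
Heat map of the 43 genes (rows, by role and then by difference) on the 6 arrays (columns), coloured by log2(intensity + 16) minus the mean of anti-CD3 replicates 1 to 3, with blue for lower and red for higher. Anti-CD3 replicate 4 and both anti-ICOS arrays are blue in most rows, and Cdk6 and Ccnd2 are red on these 3 arrays.

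Since the 43 genes share a direction in most cases and many are textbook E2F targets, their promoters were searched for E2F words. RefSeq windows (GRCm38.p6, 250 bases before to 50 after the start of a gene) were on hand for 36 of the 43 genes, in 42 windows. The words were TTTCCCGC, TTTCGCGC, TTTGGCGC and TTTGCCGC, each on both strands; they can overlap one another. At least 1 stood in the windows of 14 of 36 genes and in 33.3% of the 42 windows, against 2.26% of all 32851 windows. Among licensing genes it was 7 of 9, among replisome genes 4 of 10 and among G1/S regulators 3 of 8, and no window of the other roles held one. The CCAAT box (CCAAT, both strands) stood in 54.8% of these windows and 37.4% of all. In the lists compared below, E2F words stood in 29.6% of the windows of other replication and G1/S genes and in 5.26% of those of mitosis genes. In 9 of the 14 genes a word lay before the start, and only such words are shown, for 7 of the 9 genes, 5′ to 3′ on the strand of the gene, with E2F words in capitals. The first 5 belong to genes that lay lower with anti-ICOS, and the last 2, Cdk2 and Cdc25a, to G1/S genes with differences of -0.044 and -0.029.
Mcm5 (chr8:75109336-75109387, plus strand): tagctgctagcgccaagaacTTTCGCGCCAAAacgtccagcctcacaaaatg
Mcm6 (chr1:128359725-128359835, minus strand): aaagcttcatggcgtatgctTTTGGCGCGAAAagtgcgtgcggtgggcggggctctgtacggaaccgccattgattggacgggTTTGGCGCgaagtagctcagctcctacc
Mcm7 (chr5:138172021-138172068, minus strand): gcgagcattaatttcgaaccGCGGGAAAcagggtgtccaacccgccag
Cdc6 (chr11:98907993-98908040, plus strand): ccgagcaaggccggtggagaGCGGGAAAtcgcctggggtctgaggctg
Pola1 (chrX:93632266-93632313, minus strand): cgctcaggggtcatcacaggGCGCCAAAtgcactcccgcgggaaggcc
Cdk2 (chr10:128705164-128705211, minus strand): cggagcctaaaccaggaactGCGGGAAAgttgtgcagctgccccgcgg
Cdc25a (chr9:109875492-109875539, plus strand): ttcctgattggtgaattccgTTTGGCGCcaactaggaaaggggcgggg
In Mcm5 a forward and a reverse word overlap into a single run, and Mcm6 holds 3 matches. Mcm7 has a further word after its start, not shown. A word is a match of letters and not a measured binding site. The 14 genes with a word had a median difference of -0.52 and the 22 with a window and no word -0.56; this difference was not tested.

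The 11 licensing genes, which place the helicase on origins, all had negative differences, from -0.85 to -0.25 with a median of -0.50. Once anti-CD3 replicate 4 was left out 11 of 11 fell, beside 12.7% of all genes. The helicase subunit gene Mcm5 had the largest difference. It read 10.94, 10.96 and 10.99 in anti-CD3 replicates 1 to 3, 9.89 in replicate 4, and 9.76 and 9.94 with anti-ICOS. Replicates 1 to 3 were close together and far above the other 3 arrays, among which replicate 4 sat between the anti-ICOS values. The difference was -0.85 ± 0.31 (SE, limma adjusted p = 0.417), and -1.11 ± 0.074 (limma adjusted p = 9.88e-05) without replicate 4, a 2.16-fold lower level than in replicates 1 to 3.

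Mcm7 and Mcm3, of the same hexamer, had the next largest differences. Mcm7 read 11.00, 11.12 and 10.87 in anti-CD3 replicates 1 to 3, 10.03 in replicate 4, and 9.91 and 10.04 with anti-ICOS, a difference of -0.78 ± 0.29 (SE, limma adjusted p = 0.417). Mcm3 read 9.68, 9.80 and 9.58 in anti-CD3 replicates 1 to 3, 8.90 in replicate 4, and 8.77 and 8.88 with anti-ICOS, a difference of -0.67 ± 0.24 (SE, limma adjusted p = 0.417). For Mcm3 both anti-ICOS arrays lay just below replicate 4 as well, while for Mcm7 replicate 4 fell between them. Without replicate 4 they were lower by 1.02 ± 0.089 and 0.86 ± 0.084 on the log2 scale (limma adjusted p = 0.000301 and 0.000464).

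Mcm4 had the smallest p of all 43 genes. It read 10.20, 10.26 and 10.17 in anti-CD3 replicates 1 to 3, 9.82 in replicate 4, and 9.55 and 9.62 with anti-ICOS, so that both anti-ICOS arrays were clear of every anti-CD3 array. The means were 10.11 ± 0.20 (SD, n = 4) with anti-CD3 and 9.58 ± 0.046 (SD, n = 2) with anti-ICOS, a difference of -0.53 ± 0.13 (SE, limma adjusted p = 0.333). Against replicate 4 alone it differed by -0.23 (limma adjusted p = 0.856). The remaining MCM ring genes, Mcm6 and Mcm2, differed by -0.34 and -0.25, less than the other 4. The 6 subunits act in equal numbers in the ring, but their probe sets differed in log2 change over a range from -0.85 to -0.25.

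Among the loaders, Cdc6 read 8.38, 8.28 and 8.33 in anti-CD3 replicates 1 to 3, 7.39 in replicate 4, and 7.52 and 7.55 with anti-ICOS. Replicate 4 was the lowest of all 6 arrays here, below both anti-ICOS values. The difference was -0.56 ± 0.27 (SE, limma adjusted p = 0.423), turned to 0.14 against replicate 4 alone, and was -0.80 ± 0.064 (limma adjusted p = 0.000210) without it. Cdt1, the other loader, differed by -0.50, and Gmnn, which encodes the Cdt1 inhibitor geminin, by -0.25. The origin recognition subunits Orc6 and Orc1 differed by -0.45 and -0.26. All 4 fell without replicate 4, with limma adjusted p of 0.000695 for Cdt1, 0.0227 for Gmnn, 0.000684 for Orc6 and 0.0124 for Orc1. Orc2, Orc3, Orc4 and Orc5, counted below among the other replication genes, differed by 0.21, 0.034, 0.39 and -0.11. Without replicate 4, Orc2 and Orc4 rose by 0.33 and 0.54 (limma adjusted p = 0.0329 and 0.00410), and Orc3 and Orc5 did not pass.

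Genes that activate the loaded helicase had a median difference of -0.68, and 4 of 4 fell without anti-CD3 replicate 4, beside 12.7% of all genes. Mcm10, a scaffold needed when the helicase starts to unwind, read 8.87, 8.81 and 8.82 in anti-CD3 replicates 1 to 3, 7.79 in replicate 4, and 7.69 and 7.69 with anti-ICOS. Both anti-ICOS arrays lay slightly under replicate 4 and far under the other 3. The difference was -0.88 ± 0.30 (SE, limma adjusted p = 0.414). Without replicate 4 it was -1.14 ± 0.061, where the p-value (limma adjusted p = 5.79e-05) is descriptive only. Cdc45, a component of the moving helicase, read 9.22, 9.37 and 9.11 in anti-CD3 replicates 1 to 3, 8.10 in replicate 4, and 8.11 and 8.13 with anti-ICOS. Replicate 4 and both anti-ICOS arrays were almost level, replicate 4 lowest, and the difference was -0.83 ± 0.33 (SE, limma adjusted p = 0.420). The GINS subunit genes Gins1 and Gins2 differed by -0.52 and -0.29. Gins2 differed least of the 4, with -0.37 ± 0.10 (limma adjusted p = 0.0297) without replicate 4.

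**Figure D2:**
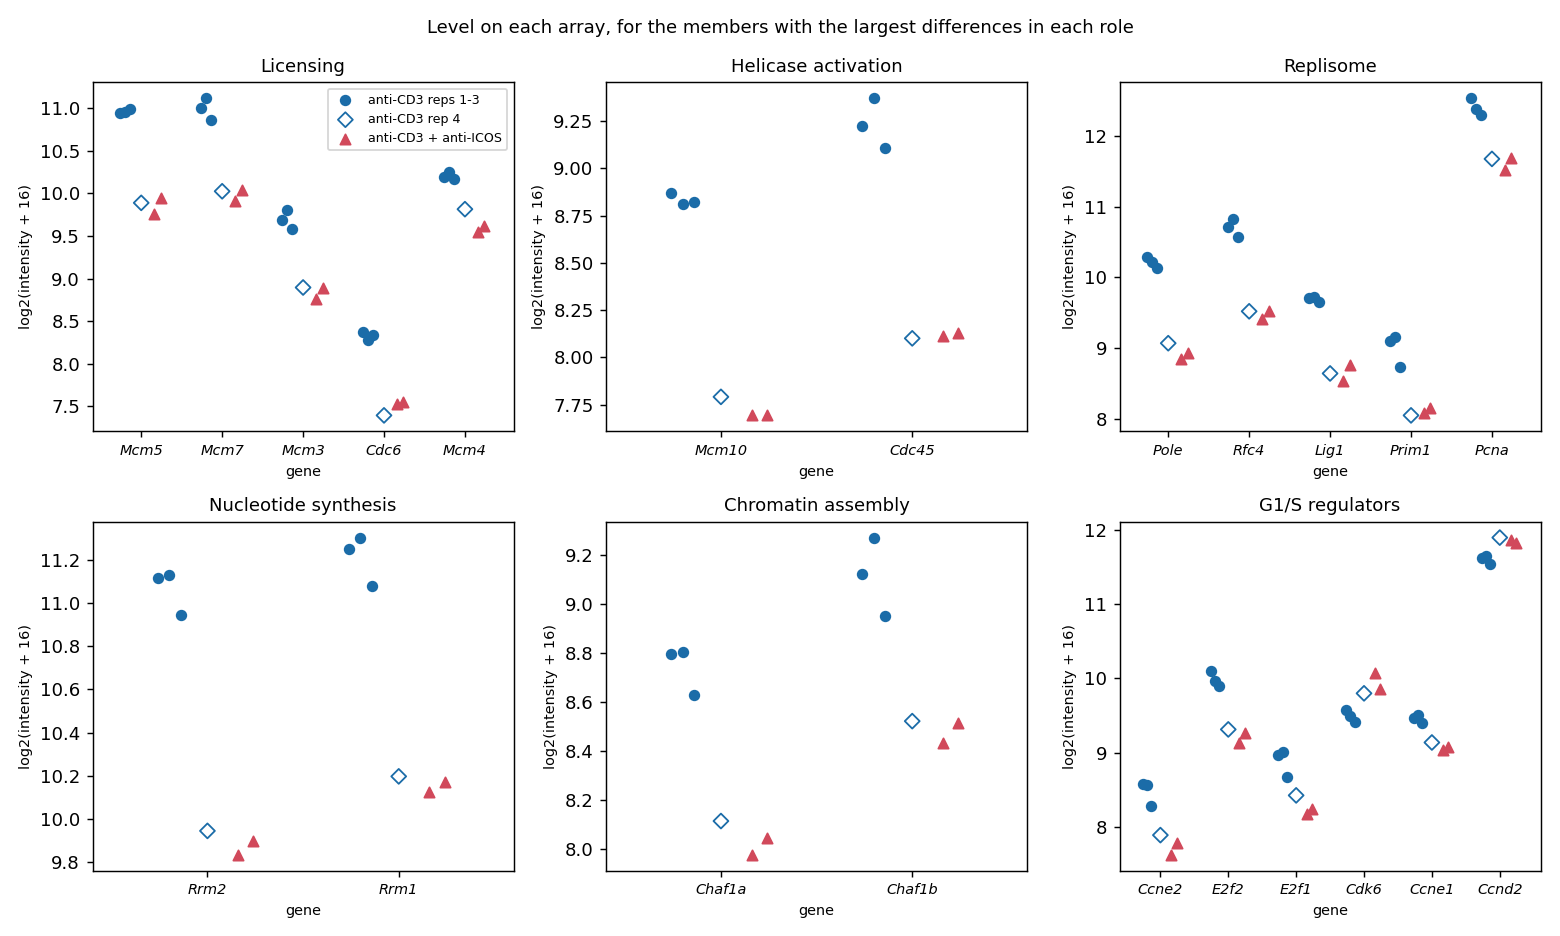
Level on each array, log2(intensity + 16), for the genes with the largest differences in each role and for Ccnd2, with filled circles for anti-CD3 replicates 1 to 3, open diamonds for replicate 4 and triangles for anti-CD3 plus anti-ICOS. For Mcm5 the circles sit near 10.94 to 10.99 and the other 3 arrays between 9.76 and 9.94, and this split recurs in most panels.

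Replisome genes included the single largest difference. All 11 were negative, from -1.04 to -0.19 with a median of -0.55. Without anti-CD3 replicate 4, 10 of 11 fell, beside 12.7% of all genes. Pole, the catalytic subunit of the leading-strand polymerase epsilon, read 10.29, 10.22 and 10.13 in anti-CD3 replicates 1 to 3, 9.07 in replicate 4, and 8.85 and 8.93 with anti-ICOS. Both anti-ICOS arrays lay below all 4 anti-CD3 arrays. The means were 9.93 ± 0.58 (SD, n = 4) with anti-CD3 and 8.89 ± 0.058 (SD, n = 2) with anti-ICOS, and the difference was -1.04 ± 0.33 (SE, limma adjusted p = 0.414). Without replicate 4 it was -1.32 ± 0.073 (limma adjusted p = 6.08e-05), a level 2.5-fold below replicates 1 to 3, and against replicate 4 alone -0.18.

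The sliding clamp holds polymerases on DNA and is placed there by a loader. Rfc4, a subunit of the clamp loader, read 10.71, 10.83 and 10.57 in anti-CD3 replicates 1 to 3, 9.52 in replicate 4, and 9.41 and 9.52 with anti-ICOS. Pcna, which encodes the clamp, read 12.54, 12.39 and 12.30 in anti-CD3 replicates 1 to 3, 11.68 in replicate 4, and 11.51 and 11.70 with anti-ICOS. In both genes replicate 4 fell between the anti-ICOS arrays. The differences were -0.94 ± 0.35 (SE, limma adjusted p = 0.417) and -0.62 ± 0.23 (SE, limma adjusted p = 0.417). The other, dimmer Pcna probe set gave -0.49; the places of the 2 sets in the genome are not given in the annotation used, so the brighter one may not lie at Pcna itself. Of the other loader subunits, Rfc5 differed by -0.55 and Rfc3 by -0.47.

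The lagging strand is made in short pieces that are primed, trimmed and joined. Lig1, the ligase that joins Okazaki fragments, read 9.71, 9.72 and 9.65 in anti-CD3 replicates 1 to 3, 8.64 in replicate 4, and 8.53 and 8.76 with anti-ICOS, a difference of -0.79 ± 0.31 (SE, limma adjusted p = 0.419). Prim1, the catalytic primase subunit, read 9.11, 9.15 and 8.73 in anti-CD3 replicates 1 to 3, 8.04 in replicate 4, and 8.09 and 8.15 with anti-ICOS, a difference of -0.64 ± 0.30 (SE, limma adjusted p = 0.423). Replicate 4 lay between the anti-ICOS arrays for Lig1 and below both for Prim1. Pola1, which extends the primers, differed by -0.53, the flap nuclease gene Fen1 by -0.45 and the polymerase delta gene Pold1 by -0.41. Rpa2, a subunit of the single-strand binding protein, had the smallest difference of the 11, at -0.19, and was the only one not past the threshold without replicate 4 (limma adjusted p = 0.0516).

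In 5 of 5 nucleotide synthesis genes both anti-ICOS arrays lay below all 4 anti-CD3 arrays, a pattern held by 14.7% of all genes. The median difference was -0.66, and -0.079 against replicate 4 alone. Rrm2, the regulated small subunit of ribonucleotide reductase, read 11.11, 11.13 and 10.95 in anti-CD3 replicates 1 to 3, 9.95 in replicate 4, and 9.83 and 9.90 with anti-ICOS. Rrm1, the large subunit, read 11.25, 11.30 and 11.08 in anti-CD3 replicates 1 to 3, 10.20 in replicate 4, and 10.13 and 10.17 with anti-ICOS. In both, replicate 4 lay just above the anti-ICOS arrays and far below the rest of its own group. The differences were -0.92 ± 0.32 (SE, limma adjusted p = 0.417) and -0.81 ± 0.30 (SE, limma adjusted p = 0.417), and -1.20 ± 0.077 and -1.06 ± 0.081 without replicate 4 (limma adjusted p = 9.1e-05 and 0.000176). Tyms, which makes thymidylate, differed by -0.66, the thymidine kinase gene Tk1 by -0.65 and the dUTPase gene Dut by -0.44. The other, dimmer Tk1 probe set gave -0.62, and here too the brighter set may not lie at the gene itself. All 5 fell without replicate 4, beside 12.7% of all genes. Further nucleotide synthesis genes, counted below among the other replication genes, were mixed. Rrm2b and Ctps differed by 0.40 and 0.23, and Dck and Umps by -0.22 and -0.19.

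The chromatin assembly factor genes, whose products lay histones onto new DNA, both had negative differences. Chaf1a read 8.80, 8.80 and 8.63 in anti-CD3 replicates 1 to 3, 8.12 in replicate 4, and 7.98 and 8.05 with anti-ICOS. Chaf1b read 9.12, 9.27 and 8.95 in anti-CD3 replicates 1 to 3, 8.52 in replicate 4, and 8.43 and 8.52 with anti-ICOS. Both anti-ICOS arrays were the lowest in each, with replicate 4 just above. The differences were -0.57 ± 0.19 (SE, limma adjusted p = 0.414) and -0.49 ± 0.19 (SE, limma adjusted p = 0.419).

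G1/S regulators were the mixed group. Of 10 genes 8 were negative and 2 positive, with a median of -0.18. Without anti-CD3 replicate 4, where 12.7% of all genes fell and 17.1% rose, 4 of the 10 fell, 2 rose and 4 were not past the threshold. The genes that fell were the E2F factors and the E cyclins. E2f1 read 8.97, 9.01 and 8.68 in anti-CD3 replicates 1 to 3, 8.43 in replicate 4, and 8.18 and 8.24 with anti-ICOS, a difference of -0.56 ± 0.17 (SE, limma adjusted p = 0.414). E2f2 read 10.10, 9.96 and 9.90 in anti-CD3 replicates 1 to 3, 9.32 in replicate 4, and 9.13 and 9.27 with anti-ICOS, a difference of -0.62 ± 0.21 (SE, limma adjusted p = 0.414). Both encode activating E2F factors, and both anti-ICOS arrays lay below all 4 anti-CD3 arrays in each. For E2f1 the step from replicate 4 to the anti-ICOS mean, -0.22, was exceeded among the 43 genes by Mcm4 alone.

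Cyclin E binds Cdk2 at the entry into S phase. Ccne2 read 8.58, 8.57 and 8.29 in anti-CD3 replicates 1 to 3, 7.89 in replicate 4, and 7.63 and 7.79 with anti-ICOS, a difference of -0.63 ± 0.20 (SE, limma adjusted p = 0.414). Ccne1 read 9.47, 9.51 and 9.41 in anti-CD3 replicates 1 to 3, 9.14 in replicate 4, and 9.04 and 9.08 with anti-ICOS, a difference of -0.32 ± 0.11 (SE, limma adjusted p = 0.417). Both anti-ICOS arrays were lowest for each gene. Their partner Cdk2 differed by -0.044 ± 0.09 (SE, limma adjusted p = 0.789), and Cdc25a, the phosphatase that activates Cdk2, by -0.029 ± 0.092 (SE, limma adjusted p = 0.868); neither passed without replicate 4 (limma adjusted p = 0.344 and 0.819).

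The 2 genes that lay higher both act in the D-cyclin step. Cdk6 read 9.58, 9.50 and 9.41 in anti-CD3 replicates 1 to 3, 9.80 in replicate 4, and 10.08 and 9.86 with anti-ICOS. The anti-ICOS arrays were the 2 highest, and replicate 4 lay above replicates 1 to 3. The means were 9.57 ± 0.17 (SD, n = 4) with anti-CD3 and 9.97 ± 0.15 (SD, n = 2) with anti-ICOS, a difference of 0.40 ± 0.12 (SE, limma adjusted p = 0.414), and 0.47 ± 0.087 (limma adjusted p = 0.00690) without replicate 4. Ccnd2, which encodes the Cdk4 and Cdk6 partner cyclin D2, read 11.62, 11.65 and 11.54 in anti-CD3 replicates 1 to 3, 11.89 in replicate 4, and 11.85 and 11.81 with anti-ICOS. Replicate 4 was the highest of the 6, so the groups overlapped. The difference was 0.16 ± 0.11 (SE, limma adjusted p = 0.465), 0.23 ± 0.066 (limma adjusted p = 0.0351) without replicate 4 and -0.059 against replicate 4 alone. Cdk4 and Ccnd3, of the same step, did not share this direction, at -0.17 and -0.20, and did not pass without replicate 4 (limma adjusted p = 0.0892 and 0.103).

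**Figure D3:**
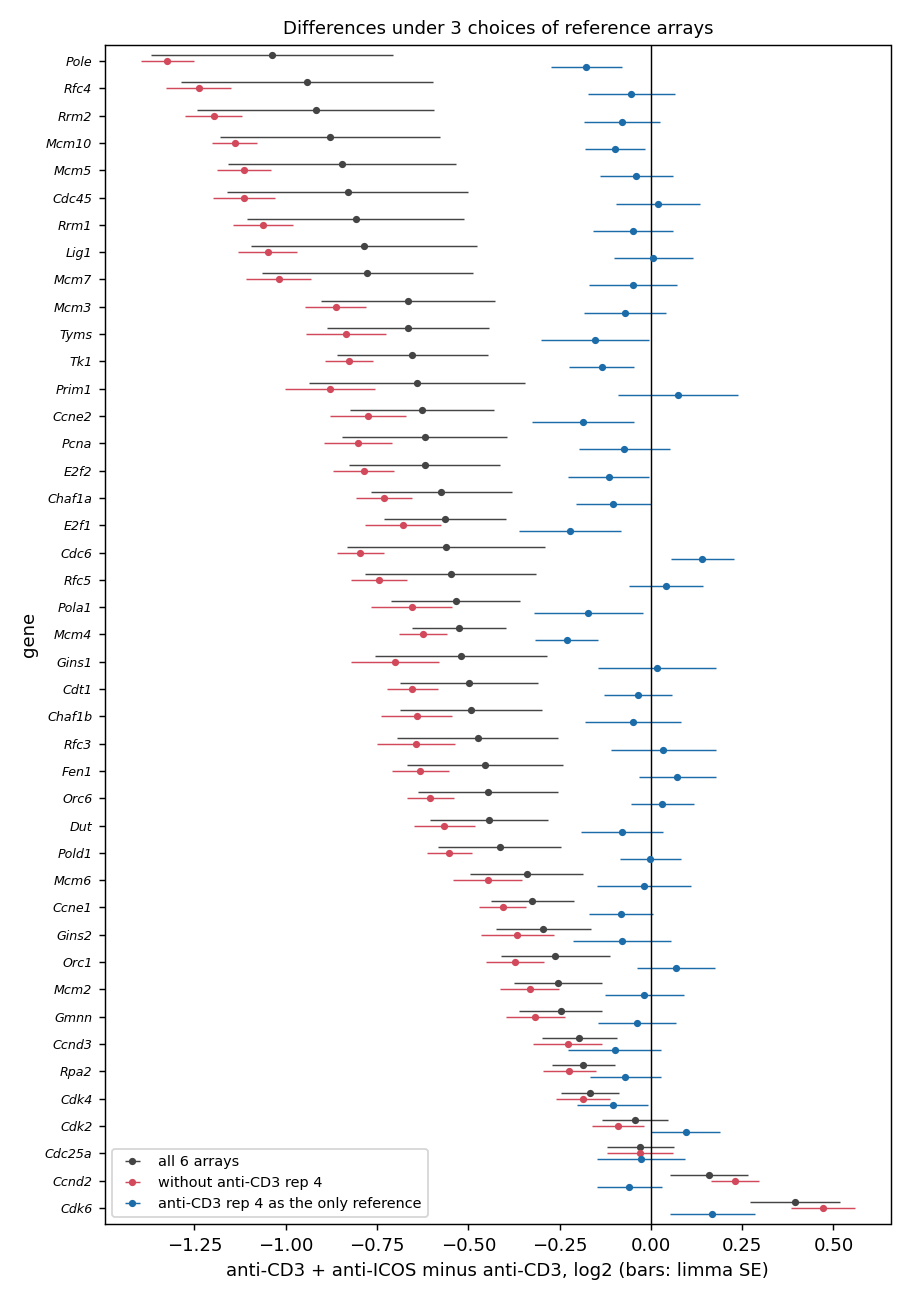
Difference of each of the 43 genes on the log2 scale, negative where lower with anti-ICOS, with bars of 1 limma SE, for all 6 arrays (grey), without anti-CD3 replicate 4 (red) and with replicate 4 as the only reference (blue). Pole lies at -1.04, -1.32 and -0.18 in that order, and most blue points lie near 0.

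The size of the shift depended on which anti-CD3 arrays served as reference. With replicate 4 as the only reference, 31 of 43 differences were negative and 12 positive, from -0.23 for Mcm4 to 0.17 for Cdk6, with adjusted p from 0.856 to 1. The median of the 43 genes, set against the mean of anti-CD3 replicates 1 to 3, was -0.63 in replicate 4, and -0.69 and -0.64 on the 2 anti-ICOS arrays. The medians for replicate 4 and for anti-ICOS share replicates 1 to 3 and so are not independent. With anti-ICOS 9 of the 43 were at least 2-fold below replicates 1 to 3, as were 131 of all 19937 genes, led by Pole at 2.5-fold, Rfc4 at 2.36-fold and Rrm2 at 2.29-fold.

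**Figure D4:**
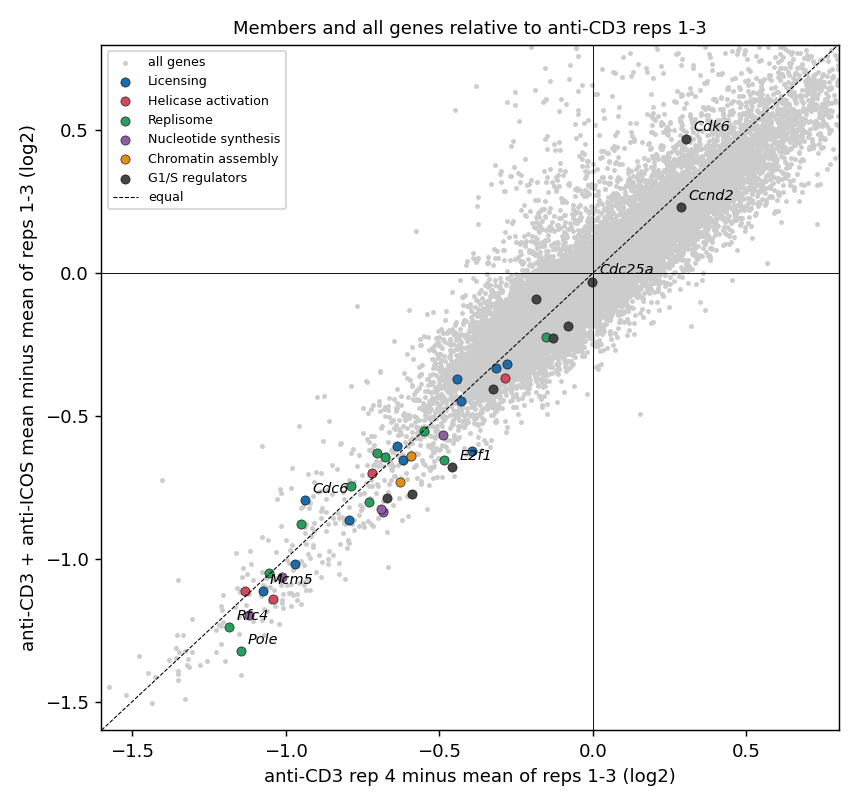
Each gene's level in anti-CD3 replicate 4 (x axis) and its mean with anti-ICOS (y axis), both minus the mean of anti-CD3 replicates 1 to 3 on the log2 scale, for all genes (grey, points beyond the axes not drawn) and the 43 genes by role. The 2 axes share replicates 1 to 3, which places points along the dashed line of equality; Pole lies at -1.15 and -1.32, Cdk6 at 0.30 and 0.47.

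Like the 43, the other genes of DNA replication and S-phase entry were chosen with earlier results of these data known. Some belong to the same complexes as the 43. The median of this other list lay nearer to that of all genes, and the difference from the 43 was not tested. Of 51 measured, 40 were negative and 11 positive, with a median of -0.26, and 0 passed with all 6 arrays (20 lower and 1 higher at an unadjusted p under 0.05, beside 5.56% and 6.24% of all genes). Without anti-CD3 replicate 4, 29 fell and 6 rose, beside 12.7% and 17.1% of all genes. Ccnd1, which encodes cyclin D1, had the smallest p of the list. It read 7.08, 6.92 and 6.99 in anti-CD3 replicates 1 to 3, 6.76 in replicate 4, and 7.28 and 7.35 with anti-ICOS, a difference of 0.38 ± 0.099 (SE, limma adjusted p = 0.367). The anti-ICOS arrays were the 2 highest, as for Cdk6. Replicate 4 was the lowest, whereas for Cdk6 and Ccnd2 it lay above replicates 1 to 3. Wdhd1, which links the helicase to polymerase alpha, and Dscc1, of an alternative clamp loader, differed by -0.53 ± 0.17 (SE, limma adjusted p = 0.414) and -0.36 ± 0.11 (SE, limma adjusted p = 0.414). E2f8 and E2f7, which encode repressive E2F factors and were picked out after their values were seen, differed by -1.01 and -0.65.

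Genes that brake the cycle showed no common direction. The list held CDK inhibitor genes, the pocket protein gene Rbl2, E2f4, E2f5, E2f6, Ccng2, Btg1 and Btg2. Rb1 and Rbl1, which also encode pocket proteins, were counted among the other replication and S-phase genes. Cdkn1a was not among the 13 measured brake genes. Of these 13, 7 were negative and 6 positive, with a median of -0.0016. With all 6 arrays 0 passed by limma, and 0 had an unadjusted p under 0.05. Without replicate 4, 1 fell and 2 rose, beside 12.7% and 17.1% of all genes. The antiproliferative gene Btg1 differed by 0.28 ± 0.12 (SE, limma adjusted p = 0.421), the cyclin G2 gene Ccng2 by -0.40 ± 0.19 (SE, limma adjusted p = 0.423) and E2f6, of a repressive E2F factor, by 0.23 ± 0.11 (SE, limma adjusted p = 0.423). Without replicate 4 Btg1 rose by 0.37 (limma adjusted p = 0.00413) and Ccng2 fell by 0.54 (limma adjusted p = 0.00592). The other gene that rose was E2f5, by 0.57 (limma adjusted p = 0.00400).

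Mitosis genes, which act later in the cycle, went the same way as the replication genes. All 24 measured were negative, with a median of -0.85. With all 6 arrays 0 passed, and 22 were lower at an unadjusted p under 0.05, beside 5.56% of all genes. Without replicate 4, 24 fell, beside 12.7% of all genes. The kinetochore gene Cenpf differed by -0.63 ± 0.19 (SE, limma adjusted p = 0.414), the phosphatase gene Cdc25b by -0.44 ± 0.14 (SE, limma adjusted p = 0.414) and the kinase gene Aurka by -0.88 ± 0.27 (SE, limma adjusted p = 0.414). The difference in median between the 2 lists was not tested.

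**Figure D5:**
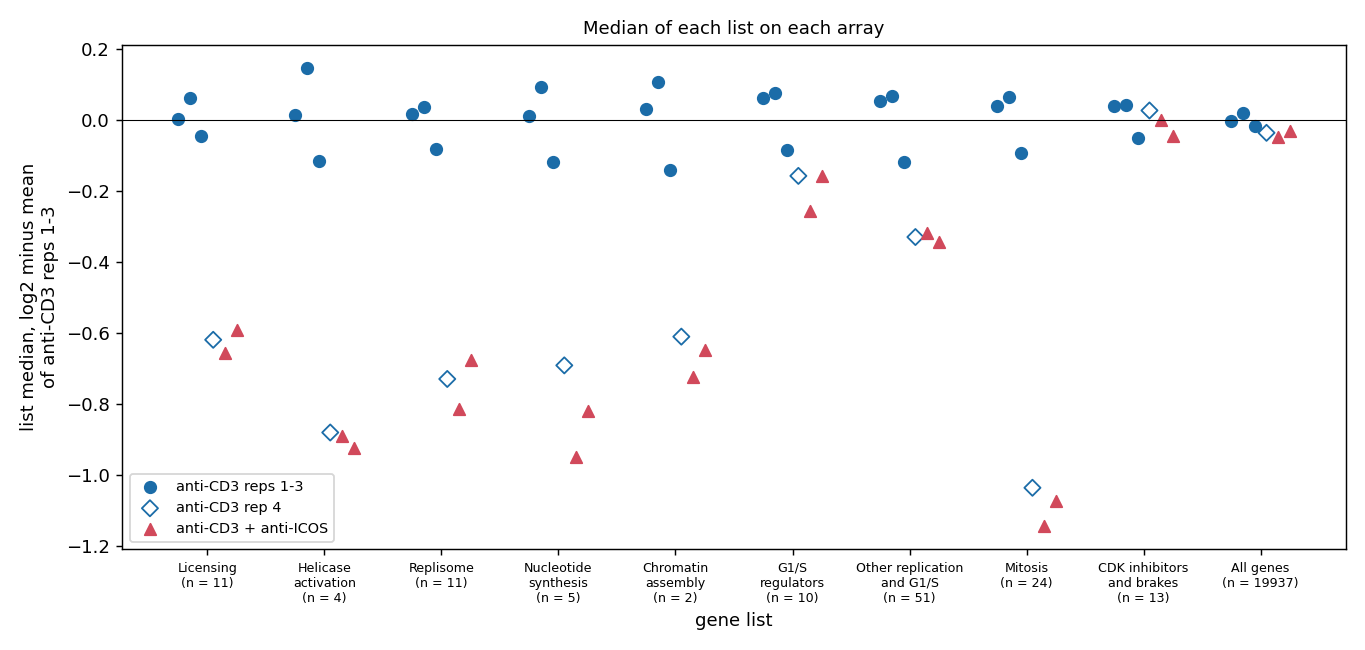
Median of each gene list on each array, as log2(intensity + 16) minus the mean of anti-CD3 replicates 1 to 3, with circles for replicates 1 to 3, open diamonds for replicate 4 and triangles for anti-ICOS. Licensing genes lie at -0.62 in replicate 4 and at -0.66 and -0.59 with anti-ICOS, mitosis genes lower, and the brakes and all genes near 0.

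Markers of other cells differed between the same arrays. The summed intensity of the 43 genes was between 44331 and 49199 in anti-CD3 replicates 1 to 3, 32809 in replicate 4 and between 30720 and 32380 with anti-ICOS. The 6 monocyte and macrophage markers summed to between 655 and 690 in replicates 1 to 3, 1139 in replicate 4 and between 1161 and 1813 with anti-ICOS, and in 5 of 6 both anti-ICOS arrays lay above replicates 1 to 3, a pattern held by 28.5% of all genes. For the 7 NK cell markers the sums were 2511 to 2752, 3413, and 3489 to 3531, with 6 of 7 above, and for the 5 B cell markers 14001 to 15736, 17308, and 15887 to 17531, with 4 of 5 above. Both CD8 genes summed to between 3859 and 4128, then 4704, and between 4352 and 4509, with 1 of 2 above. These 4 sums were higher in replicate 4 than in replicates 1 to 3, but a sum follows its brightest probe sets. Replicate 4 lay above replicates 1 to 3 in 3 of 6 monocyte and macrophage, 4 of 7 NK, 4 of 5 B cell and 2 of 2 CD8 markers, against 34.5% of all genes.

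The sums of 3 other lists were higher on the anti-ICOS arrays than on all 4 anti-CD3 arrays. Dendritic cell markers summed to 6067 to 6491 in replicates 1 to 3, 6065 in replicate 4 and 6870 to 7256 with anti-ICOS (4 of 8 above). Flt3 among them was the only marker past the threshold with all 6 arrays, at 1.26 ± 0.087 (SE, limma adjusted p = 0.00321). H2-Ab1, by far the brightest dendritic cell marker, differed by 0.11 with overlapping groups, and Xcr1 lay below all 4 anti-CD3 arrays. Neutrophil markers summed to 388 to 453, 364, and 523 to 1336 (4 of 7 above), and mast cell and basophil markers to 207 to 226, 240, and 355 to 509 (4 of 5 above). The neutrophil gene Mpo read 7.27 and 9.12 on the anti-ICOS arrays, while Ly6g, Ltf and S100a9 differed by -0.12, -0.043 and 0.0029. The 6 T cell markers summed to between 25210 and 26853, 23368, and between 21798 and 22577. Of these 4 of 6 lay below all anti-CD3 arrays, against 14.7% of all genes. No defining marker is listed at 0; the dimmest marker value was 5.13 on the log2 scale, and no absence can be read from a dim probe. The part of these other cells in the lower replication genes was not tested.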

How the data were processed

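RNA of 6 T cell cultures was measured on Affymetrix Mouse Gene ST arrays. The values used are linear intensities per probe set, deposited by the authors as 1 table of 34760 probe sets. The submitters' processing notes name MAS5; further background correction, scaling and summarization were not given in the sources used here. GEO's platform annotation gave 1 gene symbol for 21640 probe sets, several for 1321 and none here for 11799. The brightest probe set stood for each of 19937 genes.

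An offset of 16 was added before log2, with no further normalization and no filter. Groups were compared with limma 3.58.1 (R 4.3.3), with Benjamini-Hochberg adjustment over all genes, and the code was tested on simulated data. Values are means ± SD over arrays, and errors of differences are limma standard errors. With replicate 4 as the only reference, that lone array is assumed to vary like the other groups.

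The 43 genes, their roles, the other lists (134 of 140 genes measured, the rest not analysed here) and the treatment of replicate 4 were chosen with earlier results of these data known. Values on every array are given for the genes with the largest difference in each role and for genes of opposite sign; the 3 smallest p are named in each other list. Alternatives covered scaling, offset, filter, probe set, prior, array weights, replicate block and each array left out. Promoter windows are from RefSeq.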

Additional observations from a re-analysis of the deposited data

Results flagged for a closer look

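In 10 of the 43 genes (23.3%) anti-CD3 replicate 4 lay so far from the other 3 anti-CD3 arrays that its gap over the group's range passed Dixon's 95% limit for 4 arrays. Over all genes replicate 4 did so in 6% and any array in 8.69%, and chance flags about 1 in 20 groups. Replicate 4 was low in each of the 10, on the log2 scale. Among licensing genes it read 8.82 for Orc6, 7.39 for Cdc6 and 9.89 for Mcm5. It read 7.79 for Mcm10, of helicase activation. Among replisome genes it read 10.11 for Rfc5, 8.64 for Lig1, 9.31 for Pold1 and 9.07 for Pole. It read 9.95 for Rrm2 and 9.03 for Tk1, of nucleotide synthesis. The other Tk1 probe set had a gap of 0.79 of its range, under the limit, and the brighter set used here may not lie at the gene itself. Of 12 genes from the other lists checked in the same way, 4 had replicate 4 apart. It was low for the mitotic kinase gene Aurka at 8.96 and for the E2F repressor genes E2f7 at 7.90 and E2f8 at 8.42. For the antiproliferative gene Btg1 it was high, at 13.08.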

How the results depend on the processing

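The negative median of the 43 genes kept its direction under every alternative run, from -0.77 with the replicate block to -0.049 with anti-CD3 replicate 4 as sole reference. When each array was left out in turn the median ran from -0.66 to -0.45. The number of the 43 past the threshold was 0 in all but 3 alternatives. It was 41 with array weights, where 47.2% of all genes passed, and 40 with the replicate block, where 32.9% of all genes passed. It ran from 0 to 38 when each array was left out. The 38 came without anti-CD3 replicate 4, where 29.7% of all genes passed. The counts above 0 all come from fits that give anti-CD3 replicate 4 little or no weight, and are descriptive only. Of the 51 other replication and G1/S genes, 44 passed with array weights, 43 with the block, and 0 to 35 with an array left out, 35 again without anti-CD3 replicate 4. These counts stand beside the same shares of all genes. The 20 genes with both anti-ICOS arrays below all anti-CD3 arrays became 17 with quantile normalization, 26 with median centring and 20 to 39 with an array left out, 39 without anti-CD3 replicate 4 and 31 without anti-ICOS replicate 2. Beside the 39, the share of all genes was 35.1%. For the other changed counts that share was not counted, so they cannot be read against all genes. The filter on dim genes left out Orc1.

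Differences changed sign against anti-CD3 replicate 4 alone, to 0.070 for Orc1, 0.032 for Orc6, 0.14 for Cdc6, 0.019 for Cdc45, 0.018 for Gins1, 0.033 for Rfc3, 0.042 for Rfc5, 0.073 for Fen1, 0.0063 for Lig1, 0.074 for Prim1, 0.096 for Cdk2 and -0.059 for Ccnd2. With each array left out in turn, Cdc25a ran from -0.084 to 0.0085, positive without anti-CD3 replicate 2, and Cdk2 from -0.10 to 0.012, positive without anti-ICOS replicate 1. The cause was not tested.

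The replicate numbers are shared by the groups only for 1 and 2, and the deviations of same-numbered arrays correlated at -0.039 and 0.10, so the numbers were not shown to pair the arrays. With 2 anti-ICOS arrays, the deviations of each mirror those of the other, so this check cannot decide on pairing. By construction, anti-CD3 replicates 3 and 4 add nothing to the blocked difference, which leaves 1 residual degree of freedom.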
